A study of Homo sapiens with 12 samples.

Results

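The 31 genes described here are hosts of small nucleolar RNAs (snoRNAs), read from RNA-seq of 2 human neuroblastoma cell lines. They were chosen by name: the 24 genes called SNHG (small nucleolar RNA host gene) with a number, and GAS5, ZFAS1, DANCR, EPB41L4A-AS1, TAF1D, EIF4A2 and NOP56. They are 31 of the 57167 gene names in the count tables, where 1 of them, SNHG28, has 2 rows. KELLY is a line with MYCN amplification and SK-N-AS a line without it, and both are grown from tumors of the sympathetic nervous system. Cells were given DMSO, the solvent control, or Erastin, which blocks the transporter that imports cystine, for 24 h, at 1 µM in KELLY and at 2 µM in SK-N-AS, so line and dose cannot be told apart. Each of the 4 groups (KELLY DMSO, KELLY Erastin, SK-N-AS DMSO, SK-N-AS Erastin) had 3 libraries, and each line stands only for itself.

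snoRNAs guide the chemical modification of ribosomal and other RNAs. Box C/D snoRNAs guide ribose methylation, and box H/ACA snoRNAs guide the conversion of uridine to pseudouridine. In human cells most of them lie in introns of a host gene and are released when the host transcript is spliced. Many hosts are long noncoding RNAs (lncRNAs) whose spliced product carries short reading frames that end early. Such a product is exported, engaged by ribosomes and broken down by nonsense-mediated decay, a pathway that needs translation, and it accumulates when translation or the decay factor UPF1 is blocked. Several host genes also start with a run of pyrimidines that begins at a C, the terminal oligopyrimidine (TOP) tract shared with ribosomal protein genes. The counts analyzed here are steady-state levels, and neither decay nor translation was measured.

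The first bases of the transcripts are shown because a TOP tract is a feature that several host genes share with ribosomal protein genes. RefSeq promoter sequences (assembly GRCh38.p14) were found for 27 of the 31 genes, and SNHG6, SNHG9, SNHG15 and SNHG25 had no entry. In 8 of the 27 (29.6%) the annotated start was a C at the head of a run of at least 5 pyrimidines, against 4.07% of all 35116 promoters in the table. The 8 were EIF4A2, SNHG5, SNHG4, TAF1D, ZFAS1, SNHG12, SNHG19 and SNHG18. Each of the following lines holds 25 bases before the start and 25 from the start on, 5′ to 3′ on the gene's own strand, with the pyrimidine run in capitals. The positions are chr3:186783552-186783601, plus strand for EIF4A2, chr6:85678709-85678758, minus strand for SNHG5, chr20:49278617-49278666, plus strand for ZFAS1, chr11:93741471-93741520, minus strand for TAF1D, chr5:139274076-139274125, plus strand for SNHG4 and chr1:28581849-28581898, minus strand for SNHG12.
EIF4A2: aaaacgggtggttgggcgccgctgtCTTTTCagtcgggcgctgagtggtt
SNHG5: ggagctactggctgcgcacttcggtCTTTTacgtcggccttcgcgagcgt
ZFAS1: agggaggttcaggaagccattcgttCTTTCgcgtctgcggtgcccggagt
TAF1D: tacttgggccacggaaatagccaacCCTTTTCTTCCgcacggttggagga
SNHG4: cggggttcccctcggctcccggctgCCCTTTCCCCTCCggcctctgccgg
SNHG12: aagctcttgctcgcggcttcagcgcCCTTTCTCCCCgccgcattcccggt
The runs of EIF4A2, SNHG5 and ZFAS1 were 5 or 6 bases long, while those of TAF1D, SNHG4 and SNHG12 ran to between 11 and 13 bases. GAS5 and NOP56 had no such run at the annotated start, and a start placed a few bases away would not be found by this search. RefSeq and GENCODE place the start of some genes, SNHG12 and SNHG14 among them, at different bases.

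A second set of letters was searched in the window from 250 bases before to 50 bases after each start, on both strands. CACGTG, the canonical E-box that MYC and MYCN proteins can bind, was found in 1 of the 27 members (3.7%) and in 7.26% of all promoters. The 1 match was in SNHG7, 122 bases before the start, at chr9:136728284-136728323 on the minus strand, with the E-box in capitals.
SNHG7: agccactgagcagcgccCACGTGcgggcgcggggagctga
TGATGNAAN, a core of the element bound by the stress factors ATF4 and CHOP, was found in none of the 27 members and in 3.61% of all promoters. These are matches of letters and not measured binding.

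Total counts lay between 24169796 and 29835670 per library, and mitochondrial genes took 5.51% to 8.05% of them. The libraries of a group differed in how their counts followed the GC content of genes. Spearman's rho between the GC content of genes and their deviation in a library, relative to the average library of that line, was -0.86, 0.75 and -0.52 in KELLY DMSO and 0.88, -0.72 and 0.27 in KELLY Erastin (10003 genes), and 0.81, 0.28 and -0.81 in SK-N-AS DMSO and -0.33, 0.50 and -0.51 in SK-N-AS Erastin (9975 genes). KELLY Erastin replicate 1 had the strongest of these relations, and every comparison was repeated with the GC trend of each library removed. MYCN had 4520 to 6553 CPM (counts scaled to library size) in KELLY and at most 0.413 in SK-N-AS. With DMSO, 7 of 8 adrenergic markers were higher in KELLY and 7 of 8 mesenchymal markers were higher in SK-N-AS (adjusted p under 0.05). Of 8 blood cell markers, PTPRC had 547 CPM in SK-N-AS DMSO and 0 in KELLY, HBB reached 208 counts in 1 library, and CD3E, LYZ and PPBP were at 0 in all 12 libraries. What part these marker differences have in the line differences of the host genes was not tested. CHAC1, SLC7A11 and ATF4, genes known to respond to cystine starvation, rose in SK-N-AS with log2 fold changes of 4.56, 2.01 and 1.51 (adjusted p = 1.54e-06, 1.54e-06 and 5.16e-06). In KELLY, CHAC1 had a log2 fold change of 2.94 with an adjusted p = 0.0903. Of 7 genes listed to check the treatment, 6 rose in SK-N-AS at an adjusted p under 0.05 (0.659% of all genes were called). In KELLY 0 of the 7 did (0.00615%), but 6 rose at an unadjusted p of at most 0.05 with a fold of at least 1.5 (2.03%). With the GC trend removed, 5 of the 7 rose in KELLY at an adjusted p under 0.05 (0.197%).

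Of the 31 genes, 28 are annotated as lncRNA and 3 (EIF4A2, NOP56 and TAF1D) as protein-coding. The default low-count filter of edgeR kept 27 in KELLY, 25 in SK-N-AS, 26 in the comparison of the lines and 27 in the fit of all libraries. SNHG9 and SNHG25 passed in KELLY but not in SK-N-AS. SNHG18, SNHG22, SNHG27 and SNHG28 were tested in neither line: SNHG18 reached at most 10 counts in a library and SNHG22 and SNHG28 at most 8, while SNHG27 and the second row of SNHG28 were at 0 everywhere. In 22 genes every library had at least 100 counts. The counts of the 31 genes summed to 2021, 2031 and 2238 CPM (lowest, median, highest) in KELLY DMSO and to 1977, 2065 and 2139 with Erastin. In SK-N-AS the sums were 1554, 1638 and 1674 CPM with DMSO and 1449, 1512 and 1529 with Erastin. The treated and control sums overlapped in KELLY and did not overlap in SK-N-AS, where they were lower with Erastin, and both KELLY groups lay above both SK-N-AS groups. EIF4A2, NOP56, GAS5 and SNHG16, with means of 322, 226, 198 and 192 CPM over the 12 libraries, weigh most in these sums. No reference over all genes was recorded for such a sum. In these bulk samples, fewer cells of a kind and less RNA per cell cannot be told apart.

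**Figure D1:**
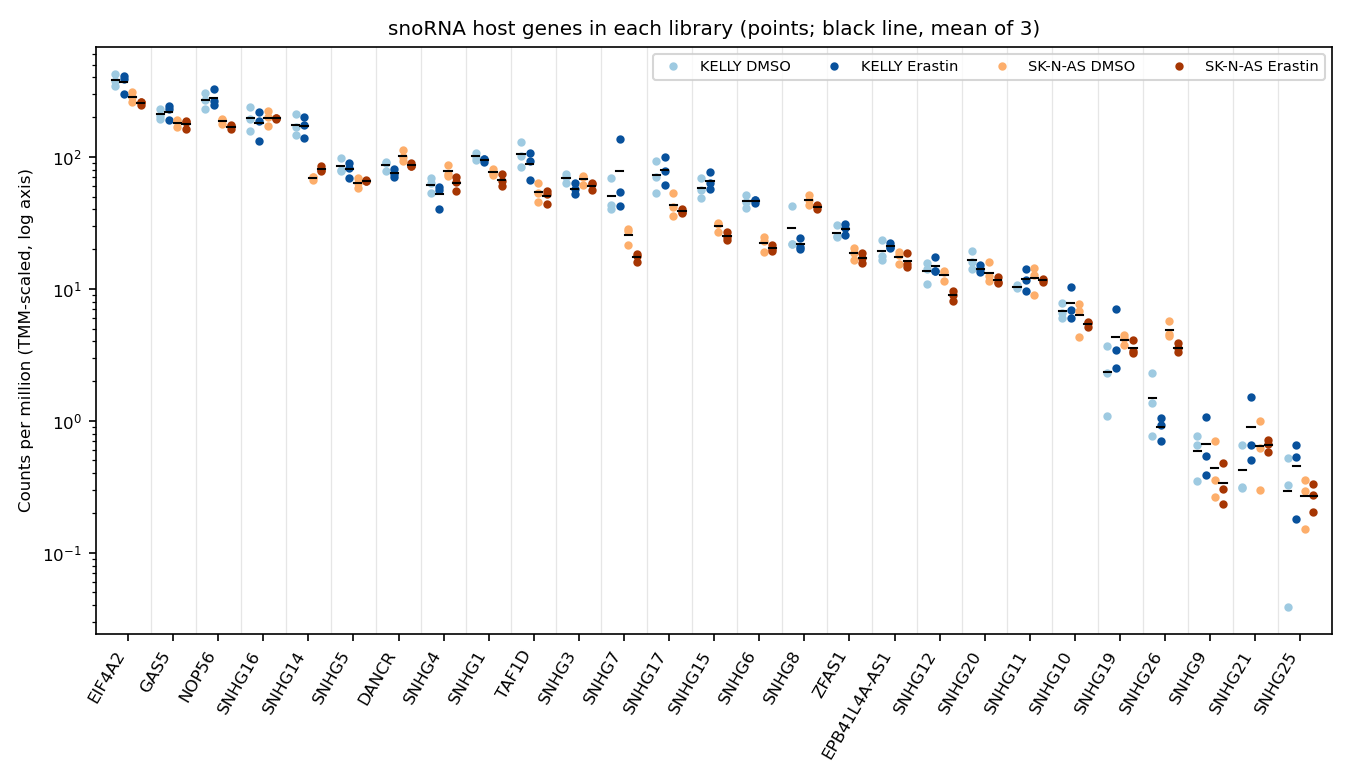
Level of each of the 27 tested host genes in every library, in TMM-scaled CPM on a log axis (points, libraries by group; black line, mean of 3). In SNHG14, SNHG15, SNHG6 and TAF1D, and also in NOP56, SNHG1, ZFAS1, SNHG7 and SNHG5, both KELLY groups lie above both SK-N-AS groups. Treated and control points of KELLY overlap in every gene but SNHG3, and SNHG7 has 1 KELLY Erastin library far above the other 5.

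The first comparison asked whether Erastin moved the host genes in KELLY. No member passed the test: 0 of 27 had an adjusted p under 0.05 (by edgeR; 0.00615% of the 16258 genes tested did) and 0 of 27 reached the threshold used in the study, an unadjusted p of at most 0.05 with a fold of at least 1.5 (2.03% of all genes). No member had an unadjusted p under 0.05, against 2.64% of all genes. DESeq2 called none either (0.191% of all genes). Of the 27, 15 had a positive and 12 a negative log2 fold change, from -0.72 (SNHG26) to 1.07 (SNHG21), and the median was 0.061, beside 0.0051 over all genes tested. Both extremes moved with 1 library: SNHG21 was at 0.45 without KELLY Erastin replicate 1, and SNHG26 at -0.26 without KELLY DMSO replicate 1. Only SNHG3 had groups that did not overlap (8.54% of all genes), with 73.7, 63.6 and 69.99 CPM with DMSO and 52.2, 62.9 and 56.8 with Erastin, and its log2 fold change was -0.27 (SE 0.15, adjusted p = 0.770).

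Among the protein-coding hosts, EIF4A2, a helicase of translation initiation, had 427, 344 and 377 CPM with DMSO and 301, 411 and 387 with Erastin (log2 fold change -0.061, 95% interval -0.44 to 0.32). NOP56, a core protein of box C/D snoRNPs, had 229.8, 304 and 272 CPM with DMSO and 327, 247 and 264 with Erastin (log2 fold change 0.061, 95% interval -0.34 to 0.46). TAF1D, a subunit of the factor that recruits RNA polymerase I, had 129, 83.6 and 101 CPM with DMSO and 67.05, 106 and 92.7 with Erastin (log2 fold change -0.24, 95% interval -0.78 to 0.29). The library with the lowest EIF4A2 and TAF1D and the highest NOP56 was KELLY Erastin replicate 1 in each case, and the GC content of the longest transcript is 38.7% in EIF4A2, 36.5% in TAF1D and 50.9% in NOP56. None of the 3 had groups that stood apart.

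The noncoding hosts best known as substrates of nonsense-mediated decay were likewise close to their controls. GAS5, a host that accumulates in growth-arrested cells, had 232, 205 and 194 CPM with DMSO and 189, 241 and 229.9 with Erastin (log2 fold change 0.065, 95% interval -0.29 to 0.42). ZFAS1, the host of the SNORD12 family, had 30.4, 24.5 and 24.9 CPM with DMSO and 25.7, 29.1 and 30.8 with Erastin (log2 fold change 0.10, 95% interval -0.29 to 0.50). SNHG1, a host of box C/D snoRNAs, had 108, 95.2 and 101 CPM with DMSO and 91.4, 95.6 and 96.7 with Erastin (log2 fold change -0.094, 95% interval -0.41 to 0.22). In these 3 genes treated and control libraries overlapped, and the intervals leave room for a rise of GAS5 of up to 0.42 or a fall of up to 0.29 on the log2 scale. SNHG5, which hosts box C/D snoRNAs of the SNORD50 family, had 97.4, 78.8 and 77.9 CPM with DMSO and 69.7, 90.3 and 81.6 with Erastin (log2 fold change -0.072, 95% interval -0.47 to 0.32). SNHG12, which hosts mostly box H/ACA snoRNAs, had 10.8, 15.7 and 14.1 CPM with DMSO and 17.4, 13.6 and 13.6 with Erastin (log2 fold change 0.14, 95% interval -0.34 to 0.61). DANCR, a lncRNA known to hold back differentiation, had 77.9, 91.7 and 89.7 CPM with DMSO and 70.2, 80.7 and 74.2 with Erastin (log2 fold change -0.20, 95% interval -0.54 to 0.14). DANCR was lower with Erastin in mean, with 1 treated library above the lowest control. EPB41L4A-AS1, the host of SNORA13, had 23.3, 17.8 and 16.4 CPM with DMSO and 20.6, 22.3 and 20.2 with Erastin (log2 fold change 0.14, 95% interval -0.30 to 0.57).

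SNHG16, the host of SNORD1 family members, had 239.8, 158 and 192 CPM with DMSO and 132, 217 and 188 with Erastin (log2 fold change -0.14, 95% interval -0.67 to 0.40). SNHG14, a very long imprinted transcript that carries the SNORD116 cluster, had 212, 147 and 168 CPM with DMSO and 138, 201 and 175 with Erastin (log2 fold change -0.036, 95% interval -0.50 to 0.43). SNHG4, the host of SNORA74A, had 68.8, 52.8 and 63.2 CPM with DMSO and 40.5, 59.1 and 56.2 with Erastin (log2 fold change -0.24, 95% interval -0.70 to 0.21). In all 3 the extremes were KELLY DMSO replicate 1, which was highest, and KELLY Erastin replicate 1, which was lowest. SNHG17, the host of the SNORA71 family, had 53.3, 93.1 and 70.5 CPM with DMSO and 98.99, 61.3 and 77.5 with Erastin (log2 fold change 0.14, 95% interval -0.46 to 0.73). SNHG15, an H/ACA host, had 49.00, 69.5 and 56.5 CPM with DMSO and 76.4, 57.1 and 63.2 with Erastin (log2 fold change 0.17, 95% interval -0.27 to 0.62). SNHG6, a box C/D host, had 51.5, 45.5 and 41.1 CPM with DMSO and 47.2, 46.96 and 44.9 with Erastin (log2 fold change 0.012, 95% interval -0.35 to 0.37). Here the groups overlapped too. SNHG8, the host of SNORA24, had 42.6, 21.8 and 21.7 CPM with DMSO and 24.4, 20.6 and 20.1 with Erastin (log2 fold change -0.40, 95% interval -1.08 to 0.27). SNHG26, the host of SNORD93, had 2.29, 0.772 and 1.36 CPM with DMSO and 0.697, 0.930 and 1.05 with Erastin (log2 fold change -0.72, 95% interval -1.75 to 0.30). The high KELLY DMSO library of SNHG8 was replicate 1, and the other 5 libraries lay between 20.1 and 24.4 CPM.

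SNHG7 (lncRNA, chr9:136721366-136728184, minus strand) depended on 1 library. It had 40.03, 68.99 and 43.2 CPM with DMSO and 136, 42.2 and 54.4 with Erastin, so that replicate 1 was more than the other treated libraries together while those lay within the range of the controls. The log2 fold change was 0.62 (SE 0.44, adjusted p = 0.770), and without KELLY Erastin replicate 1 it was -0.072 (SE 0.27). SNHG7 is 65.9% GC, and with the GC trend removed its log2 fold change was 0.076 (95% interval -0.42 to 0.57). The other tested members, SNHG3, SNHG9, SNHG10, SNHG11, SNHG19, SNHG20, SNHG21 and SNHG25, had unadjusted p-values between 0.0948 and 0.754. With the GC trend removed, EIF4A2, NOP56, SNHG14, SNHG5, SNHG1, TAF1D and SNHG12 had log2 fold changes of the opposite sign, 0 of 27 members passed at an adjusted p under 0.05 (0.197% of all genes), and 3 had an unadjusted p under 0.05 (6.71%): GAS5 (0.29), SNHG14 (0.24) and SNHG3 (-0.24).

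**Figure D2:**
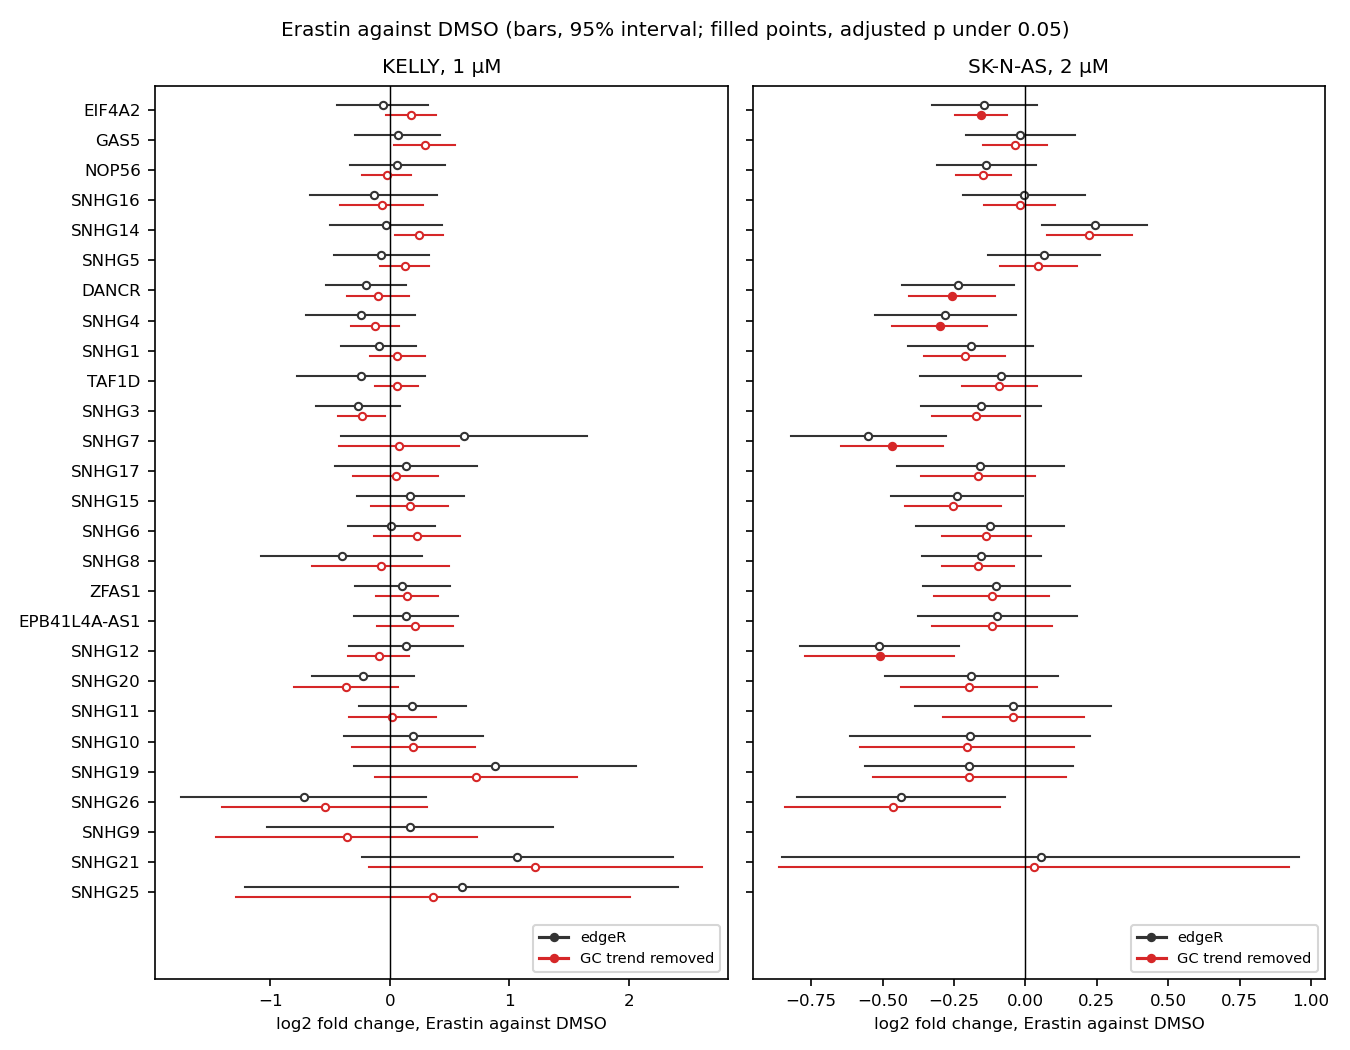
log2 fold change of Erastin against DMSO for each tested host gene in KELLY (left) and SK-N-AS (right), by edgeR (black) and with the GC trend of each library removed (red). Bars are 95% intervals and filled points have an adjusted p under 0.05: none in KELLY, and, after removal of the GC trend, EIF4A2, DANCR, SNHG4, SNHG7 and SNHG12 in SK-N-AS. The x axes of the panels differ in scale.

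In SK-N-AS most host genes were somewhat lower with Erastin, by less than 1.5-fold, and none passed the test in the main analysis. Of 25 members tested, 0 had an adjusted p under 0.05 (0.659% of the 16095 genes tested did) and 0 reached the threshold used in the study (2.67%). Negative log2 fold changes were found in 22 of 25 members (88%), against 52.4% of all genes tested, and the median was -0.15, beside -0.0090 over all genes. Values ran from -0.55 (SNHG7) to 0.24 (SNHG14). An unadjusted p under 0.05 was seen in 7 members, 1 of them higher and 6 lower (3.9% and 4.87% of all genes). Groups did not overlap in 1 higher member, SNHG14, and in 6 lower ones, NOP56, DANCR, SNHG4, SNHG7, SNHG12 and SNHG26 (6.98% and 7.81% of all genes).

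SNHG7 and SNHG12 were the 2 members furthest down. SNHG7, a noncoding host of H/ACA snoRNAs, had 27.2, 28.5 and 21.4 CPM with DMSO and 17.8, 18.4 and 15.97 with Erastin (log2 fold change -0.55, SE 0.12, adjusted p = 0.0885). SNHG12 (lncRNA, chr1:28578538-28583132, minus strand) had 13.6, 11.5 and 13.3 CPM with DMSO and 9.69, 9.01 and 8.03 with Erastin (log2 fold change -0.51, SE 0.13, adjusted p = 0.137). In both genes every treated library lay below every control, and the fold was 1.46 for SNHG7 and 1.43 for SNHG12. DESeq2, the tool of the study, called these 2 of the 25 members, both lower (0.69% of all genes were called lower; adjusted p = 0.00608 for SNHG7 and 0.0437 for SNHG12; 1.39% of all genes were called), and with no filter on low counts SNHG7 was called (adjusted p = 0.00414). Leaving out SK-N-AS DMSO replicate 3 brought 3 members under 0.05, SNHG7 (-0.67, adjusted p = 1.50e-04), SNHG12 (-0.48, adjusted p = 0.0307) and DANCR (-0.29, adjusted p = 0.0298), and SNHG7 then also reached the threshold of the study. That library had the strongest negative relation to GC content of the 6. The share of all genes called without that library, or with no filter, was not recorded. These calls therefore cannot be read as particular to the host genes.

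DANCR had 100.3, 112 and 93.8 CPM with DMSO and 84.6, 89.2 and 84.5 with Erastin (log2 fold change -0.24, SE 0.090, adjusted p = 0.432). SNHG4, which overlaps the gene MATR3 on the same strand, had 74.6, 72.1 and 86.8 CPM with DMSO and 70.9, 55.1 and 64.8 with Erastin (log2 fold change -0.28, SE 0.11, adjusted p = 0.472). The weakly expressed SNHG26 had 5.70, 4.53 and 4.40 CPM with DMSO and 3.87, 3.30 and 3.58 with Erastin (log2 fold change -0.44, SE 0.17, adjusted p = 0.442). These 3 also had treated libraries all below the controls. SNHG15 had 31.2, 31.3 and 26.98 CPM with DMSO and 27.1, 24.8 and 23.3 with Erastin (log2 fold change -0.24, SE 0.11, adjusted p = 0.541). Its lowest control and highest treated library lay at 27.0 and 27.1 CPM. SNHG14 (lncRNA, chr15:24978583-25420336, plus strand) had 66.98, 70.6 and 69.7 CPM with DMSO and 79.9, 78.5 and 85.1 with Erastin (log2 fold change 0.24, SE 0.084, adjusted p = 0.361). SNHG14 was thus the 1 member with an unadjusted p under 0.05 that was higher with Erastin, and it overlaps SNRPN on the same strand and UBE3A on the opposite one.

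With the GC trend of each library removed, the spread between replicates fell (biological coefficient of variation 0.0577, from 0.105) and 5 of 25 members fell with an adjusted p under 0.05, where 3.56% of all genes were called lower and 5.91% in either direction. The 5 were SNHG7 (-0.47, adjusted p = 0.00422), SNHG12 (-0.51, adjusted p = 0.0255), SNHG4 (-0.30, adjusted p = 0.0354), DANCR (-0.26, adjusted p = 0.0442) and EIF4A2 (-0.16, adjusted p = 0.0470). All 5 were also lower in the main analysis, with log2 fold changes between -0.55 and -0.14. None of the 5 reached a fold of 1.5. The median over the 25 members was -0.16 after the correction.

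For the coding hosts, EIF4A2 had 259, 286 and 308 CPM with DMSO and 259, 246 and 261 with Erastin (log2 fold change -0.14, 95% interval -0.33 to 0.040). NOP56 had 195, 192 and 176 CPM with DMSO and 175, 171 and 163 with Erastin (log2 fold change -0.14, 95% interval -0.31 to 0.038). TAF1D had 45.9, 52.8 and 63.2 CPM with DMSO and 52.4, 43.8 and 55.3 with Erastin (log2 fold change -0.086, 95% interval -0.37 to 0.20). In NOP56 every treated library lay below every control, while the other 2 overlapped. Of the hosts known for nonsense-mediated decay, GAS5 had 169, 186 and 191 CPM with DMSO and 186, 164 and 185 with Erastin (log2 fold change -0.019, 95% interval -0.21 to 0.17). ZFAS1 had 18.8, 16.5 and 20.3 CPM with DMSO and 18.6, 17.2 and 15.8 with Erastin (log2 fold change -0.10, 95% interval -0.36 to 0.15). SNHG1 had 73.3, 75.3 and 81.6 CPM with DMSO and 74.4, 59.8 and 65.9 with Erastin (log2 fold change -0.19, 95% interval -0.41 to 0.027). GAS5 thus differed between groups by less than the spread between its replicates, and its interval reaches no further than 0.21 from 0 on the log2 scale. SNHG5 had 58.4, 68.8 and 63.5 CPM with DMSO and 65.9, 65.1 and 66.9 with Erastin (log2 fold change 0.064, 95% interval -0.13 to 0.26). SNHG16 had 169.9, 201 and 222 CPM with DMSO and 193, 196 and 198 with Erastin (log2 fold change -0.0048, 95% interval -0.22 to 0.21). EPB41L4A-AS1 had 15.4, 18.1 and 18.9 CPM with DMSO and 15.4, 14.7 and 18.6 with Erastin (log2 fold change -0.099, 95% interval -0.38 to 0.18). For SNHG5 and SNHG16 the treated libraries lay within a narrower range than the controls and inside it. SNHG17 had 53.6, 41.6 and 35.3 CPM with DMSO and 38.3, 40.5 and 37.4 with Erastin (log2 fold change -0.16, 95% interval -0.45 to 0.13). SNHG6 had 18.98, 23.2 and 24.6 CPM with DMSO and 19.9, 19.4 and 21.5 with Erastin (log2 fold change -0.12, 95% interval -0.38 to 0.13). SNHG8 had 42.96, 46.8 and 50.9 CPM with DMSO and 40.2, 42.3 and 43.2 with Erastin (log2 fold change -0.15, 95% interval -0.36 to 0.055). In all of these the groups overlapped, and the tested members not given here (SNHG3, SNHG10, SNHG11, SNHG19, SNHG20 and SNHG21) ran from -0.20 to 0.053 with groups that overlapped.

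GC content and fold change moved together among the members. Over 27 members in KELLY, Spearman's rho between the GC content of a gene's longest transcript and its log2 fold change was 0.60, and over the 14263 genes tested that had a GC value it was 0.69. After the GC trend was removed these were -0.16 and -0.00085. Over 25 members in SK-N-AS rho was -0.48, against -0.10 over 14239 genes, and -0.44 against 0.0026 after the correction, which was fitted over all genes and not over the members. These are descriptions across genes that share libraries, and genes are not independent replicates. In SK-N-AS the lowest values belong to the GC-rich SNHG7 (65.9%) and SNHG12 (56.6%), and the highest to the GC-poor SNHG14 (37.5%).

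**Figure D3:**
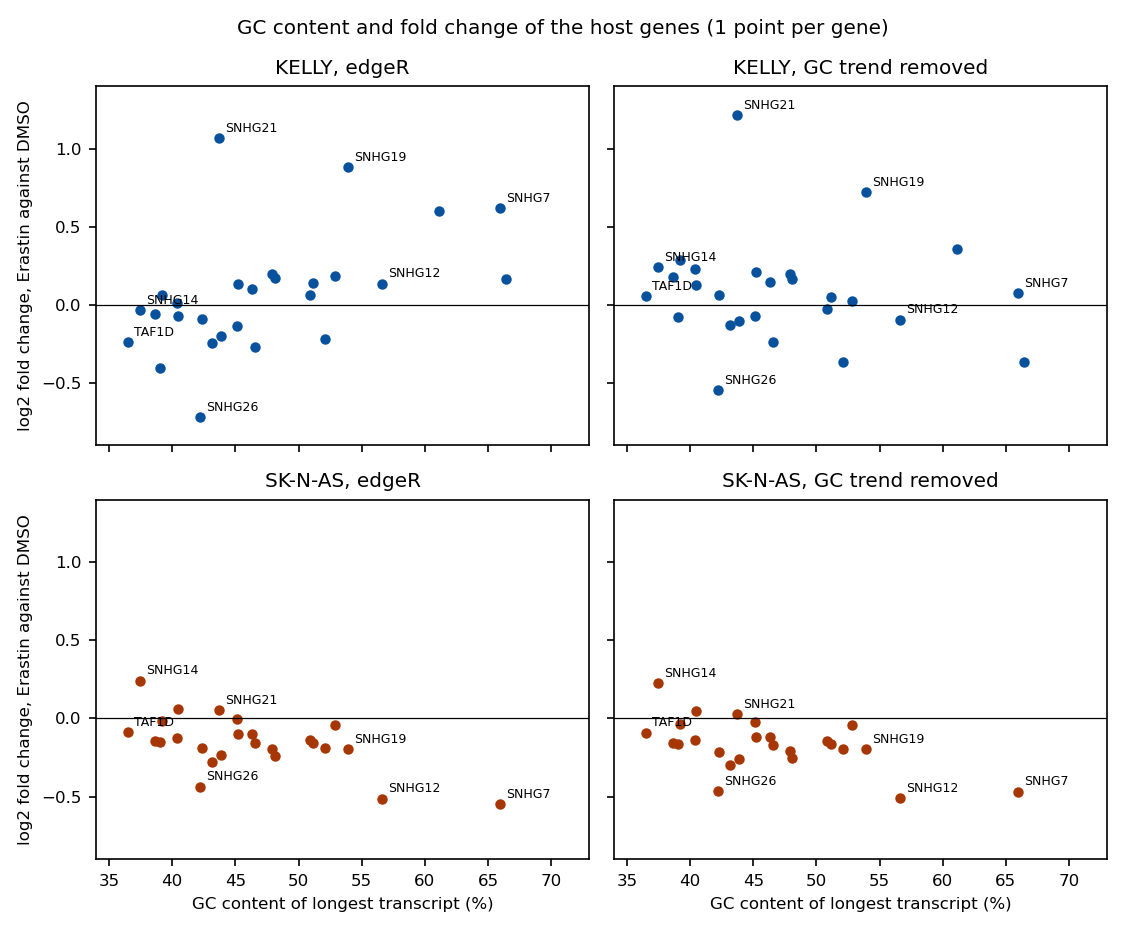
GC content of the longest transcript (%, x) and log2 fold change of Erastin against DMSO (y) of the tested host genes, 1 point per gene, in KELLY (27 genes, upper) and SK-N-AS (25 genes, lower), by edgeR (left) and with the GC trend of each library removed (right). In KELLY the rise from GC-poor to GC-rich genes (rho 0.60) is gone after the correction (rho -0.16), while in SK-N-AS SNHG7 and SNHG12 stay lowest or next to lowest in both panels.

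The next question was whether the response differed between the lines, tested as the interaction of treatment and line over all 12 libraries (the SK-N-AS change minus the KELLY change, so a negative value means a lower response in SK-N-AS). No member passed at an adjusted p under 0.05 (0 of 27; 0.00548% of the 18239 genes tested did), and the smallest adjusted p was 0.811. Negative values were found in 19 of 27 members, against 50.6% of all genes. SNHG12 (difference -0.65, SE 0.24, unadjusted p = 0.0181) and SNHG7 (-1.17, SE 0.51, unadjusted p = 0.0386) reached the threshold of the study (3.53% of all genes). Without KELLY Erastin replicate 1, KELLY DMSO replicate 1 or SK-N-AS Erastin replicate 3, each left out alone, 0 members reached that threshold, and with the GC trend removed only SNHG19 did (3.43% of all genes; difference -0.92). After that correction 22 of 27 members had negative values (50.3% of all genes), with a median of -0.22. An unadjusted p under 0.05 was seen in 6 members, all negative (764 of 18239 genes). None passed at an adjusted p under 0.05 (smallest 0.418). In the main analysis, without the GC correction, the difference was -0.092 for GAS5 (95% interval -0.46 to 0.27) and -0.11 for SNHG1 (-0.44 to 0.23).

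Without Erastin, several host genes stood at different levels in the 2 lines. Of 26 members tested between the DMSO groups, 13 had an adjusted p under 0.05, 11 of them higher and 2 lower in KELLY. Over all 17089 genes tested the share was larger, 61.3% in either direction, 30.9% higher and 30.3% lower. The median log2 difference of the members was 0.28, beside 0.024 over all genes. At the threshold used in the study 8 members differed, 6 higher and 2 lower (57.6% of all genes, 29% higher and 28.6% lower). With the GC trend removed 15 members were called, 11 higher and 4 lower, SNHG4 and SNHG19 being added (73.2% of all genes, 36.7% higher and 36.5% lower). Groups did not overlap in 11 members that were higher in KELLY and 5 that were lower (32.8% and 33.5%). The control libraries here are the ones the treatment comparisons use.

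Among the members higher in KELLY, SNHG14 differed most, with 176 ± 33.5 CPM in KELLY against 69.1 ± 1.89 in SK-N-AS (SD, n = 3), a fold of 2.57 (log2 1.36, SE 0.16, adjusted p = 1.03e-04). SNHG6 had 46.1 ± 5.23 CPM in KELLY against 22.3 ± 2.92 in SK-N-AS (log2 1.06, adjusted p = 5.57e-04). SNHG15 had 58.3 ± 10.4 CPM in KELLY against 29.8 ± 2.46 in SK-N-AS (log2 0.98, adjusted p = 9.80e-04). In each of these 3 genes every KELLY library lay above every SK-N-AS library. TAF1D had 105 ± 23.1 CPM in KELLY against 53.98 ± 8.74 in SK-N-AS (log2 0.97, adjusted p = 0.00250). SNHG7 had 50.8 ± 15.9 CPM in KELLY against 25.7 ± 3.78 in SK-N-AS (log2 1.00, adjusted p = 0.00529). SNHG17 had 72.3 ± 19.98 CPM in KELLY against 43.5 ± 9.26 in SK-N-AS (log2 0.75, adjusted p = 0.0216), and its lowest KELLY library, 53.3 CPM, lay just under the highest SK-N-AS one at 53.6 CPM.

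Smaller differences, all higher in KELLY, were found in NOP56 (log2 0.53, adjusted p = 0.00947), ZFAS1 (0.53, adjusted p = 0.0205), EIF4A2 (0.44, adjusted p = 0.0185), SNHG5 (0.43, adjusted p = 0.0329) and SNHG1 (0.41, adjusted p = 0.0203). The 2 members lower in KELLY were SNHG26, with 1.48 ± 0.767 CPM in KELLY against 4.88 ± 0.718 in SK-N-AS (SD, n = 3; a fold of 3.26, adjusted p = 0.00307), and SNHG8, with 28.7 ± 12.05 CPM in KELLY against 46.9 ± 4.00 in SK-N-AS (log2 -0.69, adjusted p = 0.0496). SNHG8 lay close to the threshold, and its KELLY libraries were themselves far apart (42.6, 21.8 and 21.7 CPM). GAS5, with 210.5 ± 19.5 CPM in KELLY against 182 ± 11.7 in SK-N-AS, had groups that did not overlap but an adjusted p = 0.161 (log2 0.23, 95% interval -0.069 to 0.52). SNHG16 was nearly level between the lines (197 ± 41.03 CPM in KELLY against 198 ± 26.4 in SK-N-AS, 95% interval of the log2 difference -0.40 to 0.42), and EPB41L4A-AS1 and SNHG12 had intervals that include 0 as well. DANCR and SNHG4 were lower in every KELLY library (log2 -0.23 and -0.32, adjusted p = 0.182 and 0.0988). NOP56, TAF1D, SNHG6, SNHG7, SNHG14, SNHG15 and SNHG26, 7 in all, were called in the main analysis and in each of its 16 alternatives.

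**Figure D4:**
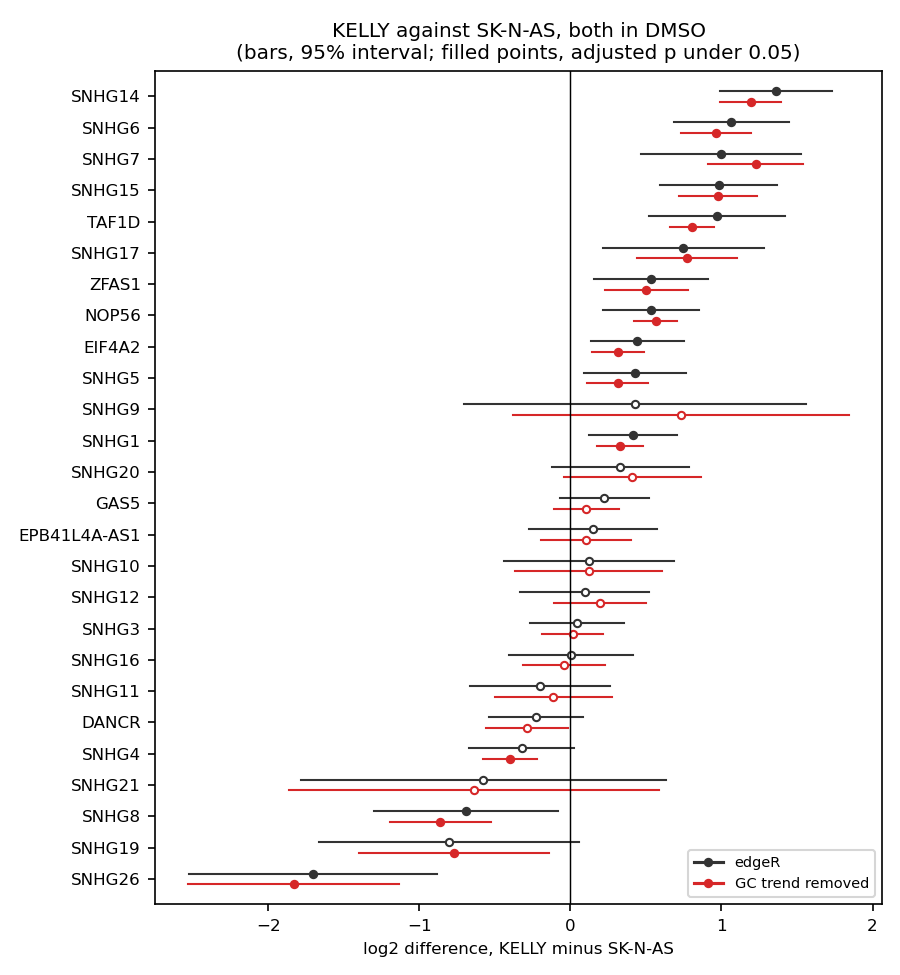
log2 difference between KELLY and SK-N-AS, both with DMSO, for the 26 host genes tested, ordered by size, by edgeR (black) and with the GC trend of each library removed (red). Bars are 95% intervals and filled points have an adjusted p under 0.05: 11 genes higher and 2 lower in KELLY by edgeR.

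A protein-coding gene starts on the opposite strand within 800 bases of the GENCODE start of 8 members: GAS5 (ZBTB37), SNHG1 (SLC3A2), TAF1D (MED17), ZFAS1 (ZNFX1), SNHG19 (TRAF7), SNHG9 (RPS2), SNHG22 (ACAA2) and SNHG18 (SEMA5A). For TAF1D this is the outermost GENCODE start, at chr11:93784391. The RefSeq start of TAF1D, in the window chr11:93741471-93741520 shown above, lies far from MED17. The pair SNHG1 and SLC3A2 is described because SLC3A2 codes for the heavy chain of the antiporter that Erastin inhibits. SNHG1 (chr11:62851978-62855953, minus strand) and SLC3A2 start 51 bases apart. SLC3A2 had 109.7, 142 and 112 CPM in KELLY with DMSO and 296, 184 and 233 with Erastin (log2 fold change 0.97, SE 0.21, adjusted p = 0.770, at the threshold of the study). It was called in KELLY by DESeq2 (adjusted p = 0.0411) and with the GC trend removed (log2 fold change 0.79, adjusted p = 0.0440). Its SK-N-AS libraries had 88.6, 81.5 and 60.1 CPM with DMSO and 141, 183 and 149 with Erastin (log2 fold change 1.05, SE 0.14, adjusted p = 0.00289). All treated libraries of SLC3A2 lay above the controls in both lines, while SNHG1 had log2 fold changes of -0.094 (95% interval -0.41 to 0.22) and -0.19 (-0.41 to 0.027). The intervals of the 2 genes did not overlap in either line. SLC3A2 was chosen for its position and its role, after its values were seen.

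**Figure D5:**
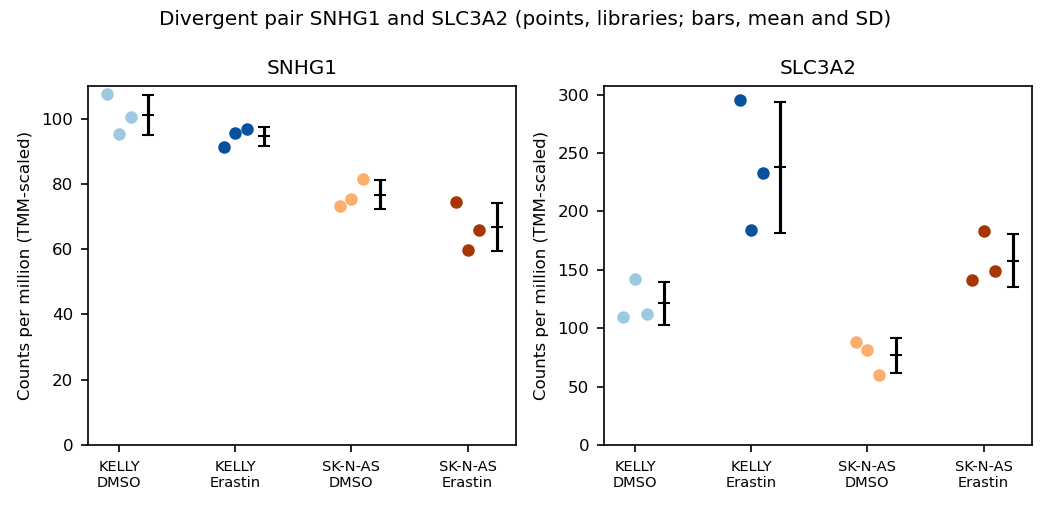
Level of SNHG1 (left) and of its divergent neighbour SLC3A2 (right) in TMM-scaled CPM, by group (points, libraries; bars, mean and SD of 3). With Erastin SLC3A2 lies above its controls in all 6 treated libraries, and SNHG1 overlaps its controls in both lines.

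Of the other neighbours, MED17, ZNFX1, ZBTB37, TRAF7, RPS2 and ACAA2 passed neither threshold in either line. SEMA5A had 15, 15 and 20 counts in SK-N-AS with DMSO and 10, 8 and 6 with Erastin (log2 fold change -1.10, adjusted p = 0.393, at the threshold of the study), and SNHG18 beside it was at 0 in the controls. Between the DMSO groups TAF1D and MED17, neighbours by the GENCODE start alone, were both higher in KELLY (log2 0.97 and 0.91). There ZFAS1 was higher and ZNFX1 lower (0.53 and -0.65, adjusted p = 0.00537). Among the 31 members, 17 overlap a protein-coding gene on the opposite strand and 6 on the same strand, and whether the counting used strand is not given in the sources used here, so reads of such pairs cannot be told apart.

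The snoRNAs themselves were hardly read by these libraries. The annotation places 138 snoRNA rows of the count tables inside 28 of the members, and 98 of these were at 0 in all 12 libraries. Most of the 138 rows, and most of those at 0, lie in SNHG14. GAS5, SNHG27 and SNHG28 had no such row. Rows were matched to the annotation by gene name, so a hosted snoRNA under a name that was not matched would be missed. The filter kept 9 rows in KELLY and 10 in SK-N-AS, and 0 passed at an adjusted p under 0.05 or at the threshold of the study in either line, and log2 fold changes in KELLY spanned -0.997 to 0.46 and in SK-N-AS spanned -0.77 to 0.11. SNORA71A, in SNHG17, was the 1 row with an adjusted p under 0.05 between the DMSO groups in the main analysis (log2 1.11, SE 0.36, adjusted p = 0.0256), with 51, 34 and 34 counts in KELLY and 24, 19 and 13 in SK-N-AS. Of all genes tested there 61.3% were called, so such a line difference is not particular to these rows. SNORA71B of the same host had 61, 24 and 24 and 18, 16 and 16 counts (log2 1.15, adjusted p = 0.0550), and SNHG17 itself was higher in KELLY. SCARNA13, in SNHG10, had 62, 13 and 26 counts in KELLY against 11, 9 and 17 in SK-N-AS (log2 1.46, adjusted p = 0.0561), with groups that overlapped. SNORA71B and SCARNA13 reached the threshold of the study (57.6% of all genes). With the GC trend removed both had an adjusted p under 0.05 (0.0454 and 0.0430, 73.2% of all genes), as SCARNA13 did by DESeq2 (0.0406). Reads of an unspliced host intron and of the snoRNA in it cannot be told apart in such rows.

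The genes around this class were described by lists. Of 19 factors of nonsense-mediated decay, which recognise and degrade transcripts with early stop codons, 0 passed in either line, and log2 fold changes spanned -0.43 to 0.33 for KELLY and -0.064 to 0.14 for SK-N-AS. MAGOHB, an exon junction protein, had the smallest p in KELLY (-0.43, adjusted p = 0.770) and SMG1, the kinase of UPF1, in SK-N-AS (0.14, adjusted p = 0.748). Of 15 mRNAs known to be held down by this decay, 3 rose in SK-N-AS (0.659% of all genes were called), ATF4 (1.51, adjusted p = 5.16e-06), CARS (1.39, adjusted p = 1.11e-05) and ATF3 (1.07, adjusted p = 0.00850), and 9 of the 15 had negative values with a median of -0.0023. In KELLY 3 of 14 reached the threshold of the study (2.03% of all genes), ATF3 (1.02, adjusted p = 0.341) and CARS (0.998, adjusted p = 0.409) among them, and with the GC trend removed 3 rose at an adjusted p under 0.05 (0.197% of all genes were called). ATF4, ATF3 and CARS, a cysteinyl-tRNA synthetase, are also genes of the amino acid stress response.

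Proteins of the snoRNPs, the particles that snoRNAs form, did not pass in either line: 0 of 4 box C/D proteins, NOP56 among them (-0.17 to 0.17 in KELLY, -0.14 to -0.098 in SK-N-AS), 0 of 4 box H/ACA proteins (-0.20 to 0.67 and -0.19 to -0.13) and 0 of 12 assembly factors (-0.41 to 0.79 and -0.16 to 0.028). Of 39 protein-coding snoRNA hosts outside the named set, 0 passed in either line. In SK-N-AS 31 of these 39 had negative values (52.4% of all genes) with a median of -0.053, and with the GC trend removed 3 of 39 fell (3.56% of all genes). Of 20 genes of ribosome biogenesis and RNA polymerases I and III, 0 passed, with medians of 0.15 in KELLY and -0.068 in SK-N-AS, where 2 of 20 fell after the GC correction. The counts between the DMSO groups stand beside 30.9% of all genes called higher in KELLY and 30.3% lower, or 36.7% and 36.5% with the GC trend removed. There 4 of 4 box C/D proteins were higher in KELLY, SNU13 (log2 1.36, adjusted p = 6.53e-05) and FBL (0.78, adjusted p = 0.00207) the most, while of the box H/ACA proteins GAR1 was lower (-0.91, adjusted p = 9.30e-04) and the other 3 did not pass. Among the 39 coding hosts 16 were higher and 5 lower in KELLY (23 and 6 with the GC trend removed), with GNL3, RPS3 and RPS12 at the smallest p (1.51, 1.55 and 1.19). Among the 19 decay factors 7 were higher in KELLY, with NBAS (0.86), UPF3B (0.83) and CASC3 (0.71) at the smallest p, and 2 were lower (10 and 5 with the GC trend removed), so that 9 of 19 were called against 61.3% of all genes. PHAX and RUVBL2 were the 2 assembly factors that differed, both lower in KELLY (-0.41 and -0.88), while with the GC trend removed 2 of the 12 were higher and 9 lower. Of the 20 genes of ribosome biogenesis 7 were higher and 6 lower (9 and 6 with the GC trend removed), a share near that of all genes.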

How the data were processed

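RNA-seq libraries of KELLY and SK-N-AS (3 per group, 12 in all) were deposited by the authors as raw read counts per gene. Per the study's methods and the submitters' processing notes, reads were trimmed with Trimmomatic, aligned to GRCh38 and counted with HTSeq, and DESeq2 was run on protein-coding genes. The aligner and the strand setting of the counting are not given in the sources used here. All gene types were kept here. Genes were filtered with filterByExpr, scaled by TMM and tested with edgeR 4.0.16 (quasi-likelihood, R 4.3.3) in each line, between the DMSO groups and for the interaction, with Benjamini-Hochberg adjustment over all genes tested. Levels are CPM, counts scaled to library size with TMM over the 12 libraries. Calls were made at an adjusted p under 0.05 and at the study's threshold (unadjusted p of at most 0.05, fold of at least 1.5). Alternatives were RLE factors, library size alone, DESeq2 1.42.0, limma-voom 3.58.1, other count filters, a replicate block, removal of each library's GC trend (loess, span 0.5, degree 2), all libraries in 1 fit and leaving out each library. The main fits were also run on simulated counts that had no GC trend. That run therefore cannot speak to the GC trends of the real libraries. Total counts were 24169796 to 29835670 per library. Per the study's methods the cells were seeded in triplicate wells, and the labels do not say whether these came from separate cultures, so p-values measure the spread between these libraries, which may be technical. Values per library are given for the 7 members named apart from the SNHG series, SNHG1, every member called at either threshold in any comparison and the SNHG genes among the 10 highest members (19 in all), and up to 3 genes of each other list are named by smallest p. Members and lists were chosen with earlier results of these data known. Gene positions are from GENCODE 44 on GRCh38.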

Additional observations from a re-analysis of the deposited data

How the results depend on the processing

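The count of members with an adjusted p under 0.05 in SK-N-AS, 0 in the main analysis, was 2 by DESeq2, 1 with no filter on low counts, 5 with the GC trend removed and 0 to 3 without 1 library. Without 1 library, 0 or 1 reached the threshold of the study there. In KELLY that count was 2 with no filter (SNHG7 and SNHG19) and 0 to 2 without 1 library, the 2 being SNHG19 and SNHG26 without KELLY DMSO replicate 2. Between the lines the adjusted count of 13 was 15 with the GC trend removed. Without 1 library it ranged from 7 (without SK-N-AS DMSO replicate 2) to 13, and was 8 without KELLY DMSO replicate 3 or SK-N-AS DMSO replicate 1. For the interaction the 2 members at the threshold of the study became 1 by limma-voom, 1 with the GC trend removed and 0 to 3 without 1 library. Same-numbered libraries did not deviate together (correlations from -0.49 to -0.036 in KELLY, from -0.0081 to 0.12 in SK-N-AS and from -0.31 to 0.10 between the lines), so the numbers were not taken to pair them. With the replicate block the adjusted counts were 2 in SK-N-AS and 7 between the lines, and 0 members reached the threshold of the study in the interaction. With the block and the GC trend removed together they were 10 in SK-N-AS, 16 between the lines and 0 in the interaction. Shares over all genes were recorded for the main, DESeq2 and GC-corrected fits only. The counts of the other settings therefore cannot be read as particular to the host genes.

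With the GC trend removed, log2 values turned in KELLY to EIF4A2 0.18, NOP56 -0.028, SNHG14 0.24, SNHG5 0.12, SNHG1 0.061, TAF1D 0.056 and SNHG12 -0.095, and with the block as well to 0.18, -0.032, 0.24, 0.12, 0.055, 0.054 and -0.096 in the same order. The interaction turned for SNHG14 (-0.026, with the block -0.018), SNHG5 (-0.086, with the block -0.083), TAF1D (-0.15, with the block -0.15) and SNHG8 (-0.086, with the block -0.080). SNHG16 lay so near 0 that its sign turned in SK-N-AS by limma-voom (0.0041), with no filter (0.0012), with at least 10 counts in every library (0.0014) and with the block (0.0036), and between the lines by RLE size factors and DESeq2 (-0.015 each), limma-voom (-0.005), no filter (-0.014), the block (-0.007), the GC trend removed (-0.042, with the block -0.052) and all libraries in 1 fit (-0.008). Without 1 library, values that turned ranged in KELLY over EIF4A2 -0.15 to 0.060, NOP56 -0.073 to 0.16, SNHG16 -0.30 to 0.038, SNHG14 -0.17 to 0.13, SNHG5 -0.16 to 0.045, SNHG17 -0.060 to 0.36, SNHG8 -0.57 to 0.0018, SNHG6 -0.069 to 0.10, SNHG7 -0.072 to 0.91 and GAS5 -0.0066 to 0.16; in SK-N-AS over SNHG17 -0.29 to 0.020, SNHG16 -0.10 to 0.089, GAS5 -0.070 to 0.047 and TAF1D -0.19 to 0.044; between the lines over SNHG16 -0.16 to 0.14, EPB41L4A-AS1 -0.010 to 0.25 and SNHG12 -0.020 to 0.24; and in the interaction over SNHG16 -0.057 to 0.28, DANCR -0.10 to 0.031, TAF1D -0.034 to 0.29, SNHG8 -0.16 to 0.41, SNHG26 -0.18 to 0.57 and SNHG4 -0.20 to 0.057. No other named member changed sign under these alternatives, and the cause of the turns was not tested. With 3 libraries a group, members with few counts had wide intervals, and a change below them was not detectable at this depth.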

Other observations

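Some snoRNA hosts appear in the count tables under older names and so fall outside the name rule. LRRC75A-AS1, now SNHG29, had 203, 198 and 198 CPM in KELLY with DMSO and 225, 237 and 226 with Erastin (log2 fold change 0.20, adjusted p = 0.770). In SK-N-AS it had 88.6, 99.2 and 95.4 CPM with DMSO and 92.7, 103 and 92.8 with Erastin (log2 fold change 0.037, adjusted p = 0.953). Between the DMSO groups it was higher in KELLY (log2 1.09, SE 0.12, adjusted p = 6.04e-05). C6orf48, now SNHG32, and LINC02001, now SNHG30, passed neither threshold for Erastin in either line. For LINC02001 the 3 treated SK-N-AS libraries lay below the 3 controls (log2 fold change -0.32, adjusted p = 0.654).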
